A study of Mus musculus with 2 samples.

Results

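Chemokines and their receptors were followed in mouse ureters at E14.5 as every non-control probe of the array named Ccl, Cxcl, Ccr or Cxcr with a number, together with Cx3cl1, Cx3cr1, Xcl1 and Xcr1. These names cover 54 genes on 71 probes, of 29875 genes on 39429 probes in all. They comprise 35 ligand genes and 19 receptor genes, taken by name. The ureters labelled Smad4cKO (UE) carried Pax2-cre/+;Smad4(fl/fl) per the title and "Pax-cre/+" in the genotype field, a knockout that the label places in the ureteric epithelium. The controls were Smad4(fl/?), with the second allele not given and no Cre listed; both groups were NMRI embryos with at least 1 floxed Smad4 allele. On each of 2 two-colour arrays, a knockout and a control sample were hybridised together. Array 1 held female samples with the knockout in Cy3, and array 2 held male samples with the knockout in Cy5, so sex and dye orientation changed together and cannot be told apart. Nothing in the labels says whether a sample pools embryos or whether the arrays come from separate litters. The p-values therefore measure only the spread between these arrays, which the limma test pools in large part over all genes.

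Chemokines are small secreted proteins that bind receptors of the G-protein-coupled family and guide cell migration. Most ligands are grouped by the spacing of their first cysteines into CC and CXC classes, with small XC and CX3C classes beside them, and the receptors are named after the class they bind. One group, with Cxcl12 and its receptor Cxcr4 as the best known pair, is produced steadily and places cells during development, whereas many others are induced in inflammation and draw in granulocytes, monocytes or lymphocytes. The comparison asks which of these transcripts were deregulated when Smad4, the shared SMAD partner of BMP and TGF-beta signalling, was targeted in the epithelium.

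Of the 35 member genes bright enough to be tested, Cxcl13 alone passed the test, and it was 2.18-fold lower in labelled knockout than in labelled control. No member gene passed in the other direction. The neighbouring CC genes Ccl6 and Ccl9 read higher in labelled knockout on the male array, with ratios near 0 on the female array. The constitutive ligands Cxcl12 and Cxcl14 read lower in labelled knockout on the female array, with ratios near 0 on the male array. For Cxcl12 this holds for the brighter probe. Its second probe read lower on both, with log2 ratios of -0.28 on the female and -0.18 on the male array.

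The promoter of Cxcl13, the member that passed, and those of Ccl6 and Ccl9, whose ratios were alike on each array, are shown as the 250 bases before the start of each gene, 5′ to 3′ on the gene's strand, from RefSeq on GRCm38.p6. That of Cxcl13 lies at chr5:95956689-95956938 on the plus strand, with capitals at TATAAA and at CAGAC or its reverse complement. Those of Ccl6, at chr11:83593088-83593337, and Ccl9, at chr11:83578637-83578886, lie on the minus strand, with capitals at the longest run of bases they share.
Cxcl13: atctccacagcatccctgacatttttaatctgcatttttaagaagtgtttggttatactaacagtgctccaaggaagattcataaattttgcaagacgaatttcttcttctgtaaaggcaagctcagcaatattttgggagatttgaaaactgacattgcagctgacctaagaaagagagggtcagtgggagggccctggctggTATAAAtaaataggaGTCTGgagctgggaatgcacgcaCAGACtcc
Ccl6: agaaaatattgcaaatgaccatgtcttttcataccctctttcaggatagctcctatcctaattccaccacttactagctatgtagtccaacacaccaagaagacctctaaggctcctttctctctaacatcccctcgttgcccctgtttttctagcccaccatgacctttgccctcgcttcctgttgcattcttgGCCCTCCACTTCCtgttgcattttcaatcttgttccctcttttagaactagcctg
Ccl9: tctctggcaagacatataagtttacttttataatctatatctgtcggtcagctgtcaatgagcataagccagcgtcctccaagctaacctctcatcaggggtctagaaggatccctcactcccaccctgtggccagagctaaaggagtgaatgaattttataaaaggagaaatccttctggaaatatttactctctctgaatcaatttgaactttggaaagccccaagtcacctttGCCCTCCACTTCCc

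TATAAA begins 46 bases before the start of Cxcl13. CAGAC, the short SMAD-binding letters, begins 8 bases before it on the gene's strand and 31 bases before it on the other strand. On either strand, CAGAC occurred in 42.2% of all 32851 promoter windows and in 18 of the 43 windows of member genes. The longer letters GGCGCC and GTCTAGAC are not in the window of Cxcl13. GGCGCC was found in 9.59% of all windows and 2 of the member windows, those of Cx3cl1 and Cxcl12, and GTCTAGAC in 0.167% and in 0 of 43. TATAAA was found in 12.4% of all windows and in 12 of the 43. The AP-1 letters TGANTCA were found in 6.75% of all windows and in 5 of the 43. The kappa-B consensus, the NF-kappa-B motif found before many induced chemokine genes, was in 7.25% of all windows and in 10 of the 43, among them Cxcl1, Cxcl2, Cxcl3, Cxcl10, Ccl20 and Ccr6. It was not found in Cxcl13 or Ccl6 and was found in Ccl9. Ccl6 and Ccl9 shared a run of 13 bases at most, which begins 55 bases before the start of Ccl6 and 14 bases before that of Ccl9. Windows were matched for 39 of the 54 member genes, some of which have more than 1 start.

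Across all genes the 2 arrays hardly correlated in their log2 ratios of labelled knockout over labelled control, at 0.0168 (Pearson) and -0.082 (Spearman) over 20104 genes, which are not independent replicates. Between 66.6% and 69% of spots were well above background in each knockout channel, and 67.4% to 68.5% in each control channel. Smad4, the targeted gene, read -0.58 on array 1 and -0.08 on array 2 (log2 ratio), and whether its probe lies in the floxed part was not determined here. Sex-linked genes followed the labelled sex of each array but were not balanced within it. Xist, expressed from the inactive X, had a log2 ratio of -1.57 on the male array, and the Y-linked gene Ddx3y one of 1.05 on the female array, and the part of this imbalance in the results was not tested. Directions follow the dyes in the labels. The authors' deposited table runs the opposite way to its titles, and lists Cxcl13 with signed folds of 1.65 on array 1 and 3.39 on array 2.

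A probe had 4 spots per array and was kept where at least 2 of them exceeded background clearly, by the scanner's own test, in both knockout channels or in both control channels. By this rule 35 of 54 member genes were kept, a share close to that over all genes (20104 of 29875). These were 25 of 35 ligand genes and 10 of 19 receptor genes, and 22 ligands and 7 receptors met the rule in all 4 channels. Of the CC ligands, 15 of 20 were kept, and of the CXC ligands 9 of 13. Among receptors, 6 of 11 CC and 3 of 6 CXC genes were kept, as were both CX3C genes, the ligand Cx3cl1 and the receptor Cx3cr1. The XC pair Xcl1 and Xcr1 had no spot above background in any channel.

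Receptors of neutrophils and lymphocytes were among the genes with no signal. Cxcr1 and Cxcr2, the receptors by which neutrophils sense CXC ligands, had no spot well above background, nor did Cxcr5, the receptor for Cxcl13 on B cells, or Ccr1 and its relative Ccr1l1. Among ligands the same held for Cxcl2 and Cxcl3, which draw neutrophils in, Cxcl15 and Cxcl17 of mucosal epithelia, and Ccl8, Ccl20, Ccl22 and Ccl26. In all 15 genes had no such spot. A further 4, among them the ligand Ccl17 and the receptors Ccr3 and Ccr9, had some such spots but too few to be kept. The array's floor sets what can be seen here, and a dim probe does not show that a transcript was absent.

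A total of 31 textbook ligand and receptor pairs was drawn up over 17 receptors, and in 9 of them both partners were kept in all 4 channels. These are Cxcl12 with Cxcr4, Cxcl16 with Cxcr6, Cx3cl1 with Cx3cr1, Ccl19 with Ccr7, Ccl27a and Ccl28 with Ccr10, and the monocyte attractants Ccl2, Ccl7 and Ccl12 with Ccr2. In 11 pairs the ligand alone was measured in all 4 channels, as for Cxcl13 without Cxcr5 and for Ccl6 and Ccl9 without Ccr1. The receptor alone was measured in 2 pairs, both of Ccr4.

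**Figure D1:**
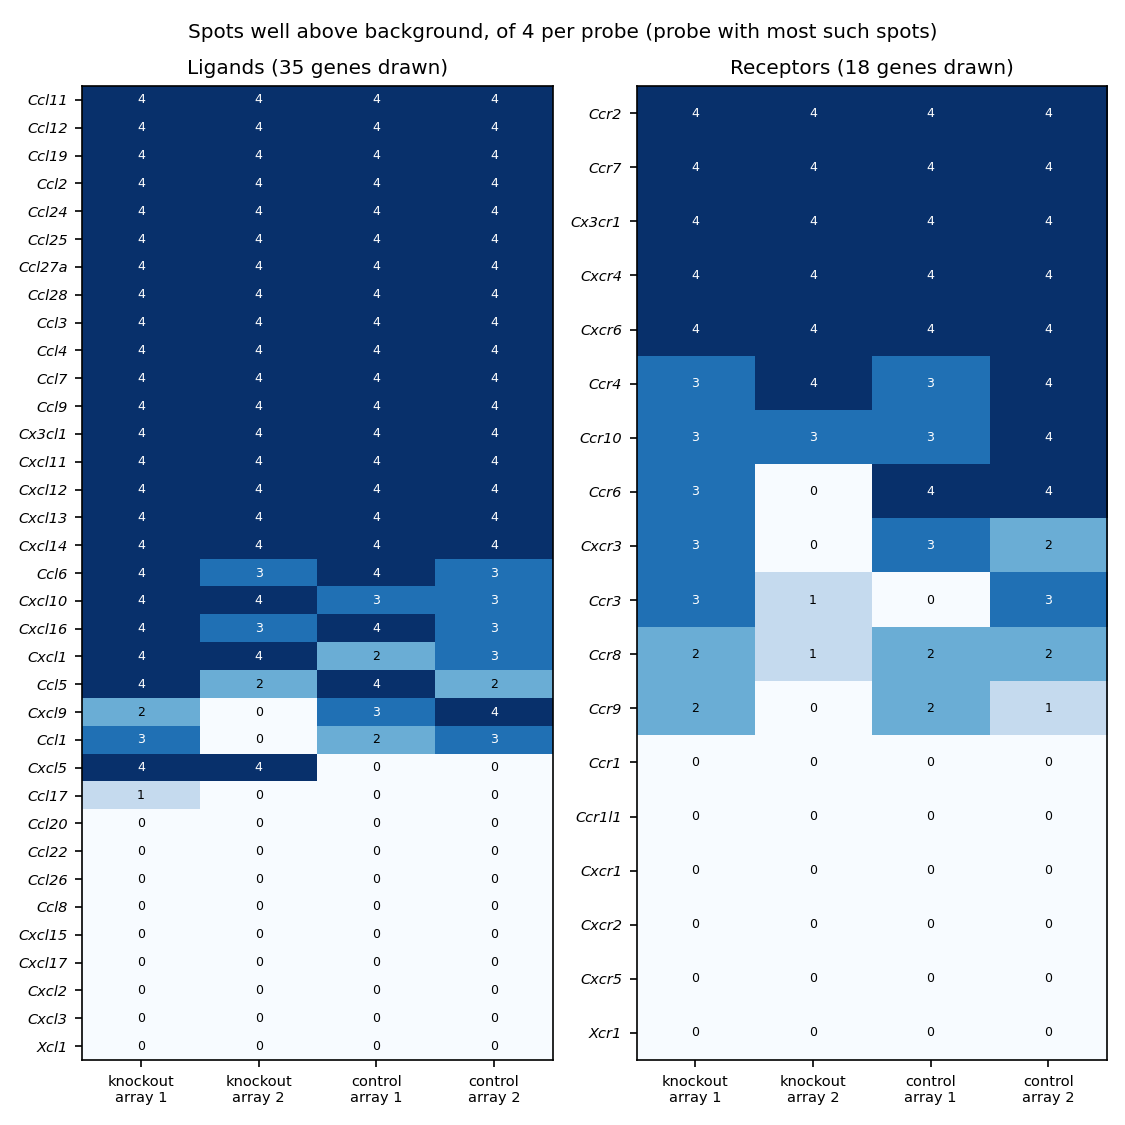
Number of spots well above background, of 4, for the best probe of each of 53 of the 54 member genes (rows) in the knockout and control channels of both arrays (columns). Cxcl13 has 4 in every channel, Cxcl5 has 4 in both knockout channels and 0 in both control channels, and 15 genes have 0 throughout.

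Cxcl13 encodes the chemokine that draws B cells and lymphoid tissue inducer cells to sites where lymphoid tissue forms. Its log2 normalised intensity was 9.11 and 9.05 in labelled knockout, on arrays 1 and 2, against 9.74 and 10.66 in labelled control. Both knockout values lay below both control values, and the controls stood further apart from each other than the knockouts did. The log2 ratio was -0.64 on array 1 and -1.61 on array 2, a mean of -1.12 ± 0.69 (SD, n = 2 arrays), with a limma adjusted p of 0.0494. That test used a standard error of 0.19, from a variance drawn towards that of all genes (1 residual degree of freedom against a prior of 9.21). The wide spread of Cxcl13 itself raised it. Ccl19, with nearly equal ratios on the 2 arrays, had a standard error of 0.12. In its single spots the knockout channel read 9.04 to 9.15 on array 1 against 9.63 to 9.82 in the control channel. On array 2 the knockout spots read 8.94 to 9.11 against control spots of 10.58 to 10.74. No knockout spot reached any control spot of its array. The probe lies on mm9 chromosome 5, positions 96389861 to 96389920, on the plus strand, and shared no run of 20 bases with any other probe.

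Across all 20104 genes 66 passed an adjusted p of 0.05, which is 0.328%, and among member genes the count was 1 of 35. In the lower direction alone 0.0995% of all genes passed. The count of member genes higher in labelled knockout was 0 by limma, against 0.229% of all genes. At an unadjusted p of 0.05 the member count was 4 (Cxcl13, Ccr6, Ccl6 and Ccl9), against 4.55% of all genes. The call on Cxcl13 lies close to the threshold, and its adjusted p ran from 0.000142 to 1 over the 12 other settings, 8 of which kept it below 0.05. It was lost without background correction (0.126), with median centring, without a filter on dim probes, and with 4 unpaired channels without dye (0.42), and kept with dye as a covariate of those channels (0.0326). Among the 8, Aquantile normalisation between arrays leaves ratios as they are and so repeated the reported 0.0494. The mean log2 ratio of Cxcl13 lay between -1.26 and -1.09 in all 12. Settings of filter, probes, prior and channel pairing cannot move it from -1.12, as the gene has 1 kept probe.

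**Figure D2:**
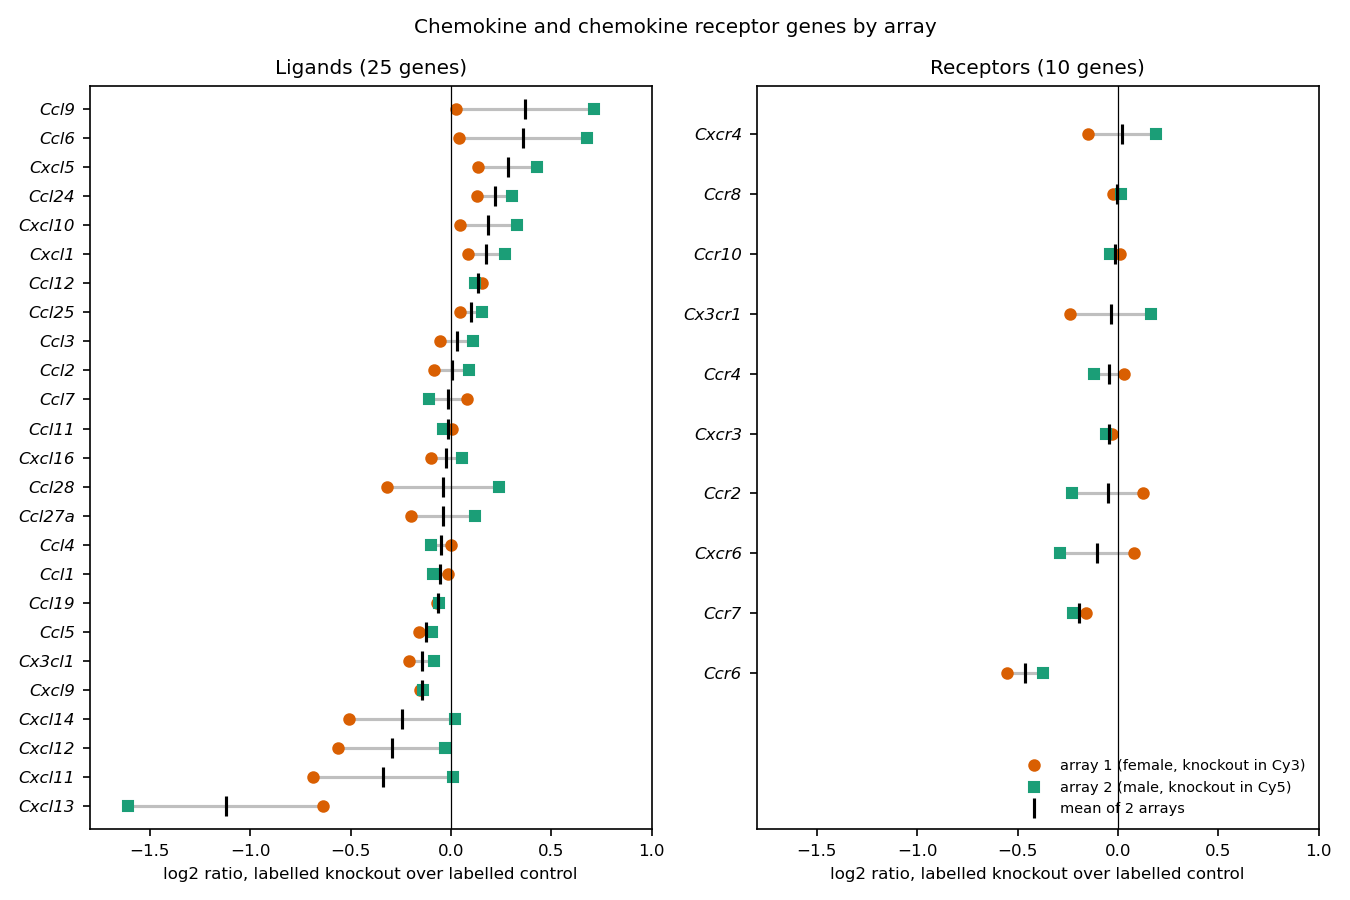
Log2 ratio of labelled knockout over labelled control (x axis) for the 35 member genes tested, ligands left and receptors right, with circles for array 1, squares for array 2 and a bar for their mean. Cxcl13 is lowest at a mean of -1.12, and Ccl6 and Ccl9 have 1 array near 0 and the other near 0.7.

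Ccl6 and Ccl9 are neighbouring CC ligands of myeloid cells, and both bind Ccr1, which had no spot above background here. Ccl6 had log2 intensities of 8.30 and 8.95 in labelled knockout and 8.26 and 8.27 in labelled control. Ccl9 had 8.50 and 8.79 in labelled knockout and 8.48 and 8.08 in labelled control. For both genes the male knockout sample stood above the other 3, and the female pair was nearly equal. The ratio of Ccl6 was 0.04 on array 1 and 0.68 on array 2 (mean 0.36 ± 0.45, SD, n = 2, limma adjusted p = 1). That of Ccl9 was 0.03 and 0.71 (mean 0.37 ± 0.49). The probes lie 13714 bases apart on mm9 chromosome 11, at 83401997 to 83402056 for Ccl6 and 83388223 to 83388282 for Ccl9. The members next to them on the chromosome had smaller ratios. Ccl5, on the Ccl9 side, read -0.16 and -0.09, Ccl3, on the Ccl6 side, -0.05 and 0.11, and Ccl4 0.00278 and -0.10. These last 3 are inflammatory ligands, made by lymphocytes and macrophages.

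Macrophage markers bear on both genes, which macrophages express. Of 14 such markers 12 were tested and none passed. Their median log2 ratio was 0.10 on array 1 and 0.02 on array 2. Lyz2 read 0.17 and 0.60 and Adgre1, which encodes F4/80, -0.02 and 0.54, so that the ratios of these, too, were larger on the male array. More of the tested markers had the higher ratio on the female array, among them C1qb (0.27 and -0.02), Mrc1 (0.24 and 0.18) and Tyrobp (0.18 and 0.09). Csf1r, which marks the lineage, read -0.05 and 0.00288, and Cd163 had no spot above background. Summed on the linear scale the list came to 52558 and 52240 in labelled knockout, against 62057 and 51468 in labelled control. Itgam, by far the brightest of the list, weighs most in this sum and read -0.40 and -0.02. The part of macrophages in the values of Ccl6 and Ccl9 was not tested, and in whole ureters fewer cells of a type and less RNA per cell cannot be told apart.

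**Figure D3:**
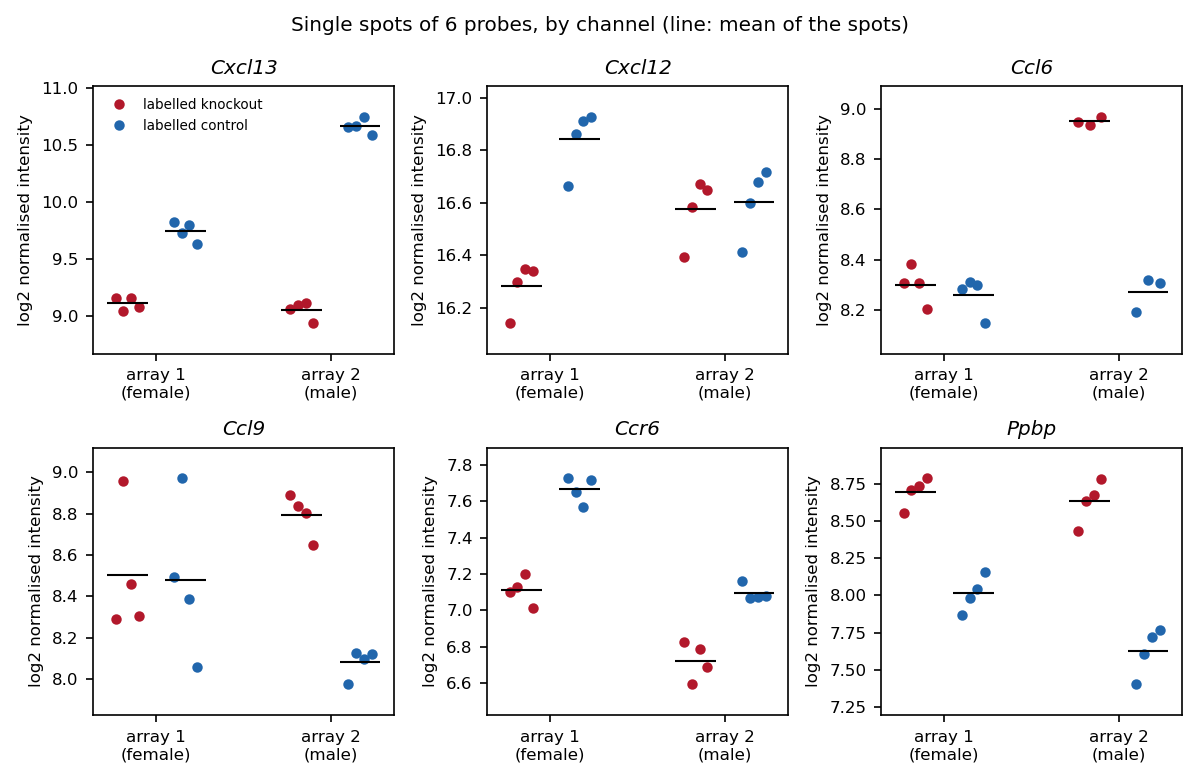
Log2 normalised intensity (y axis) of each usable spot of 6 probes, labelled knockout in red left of labelled control in blue, for arrays 1 and 2; black lines are means over spots. The channels of Cxcl13 separate on both arrays, those of Ccl6 and Ccl9 on array 2, and those of Cxcl12 on array 1.

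Cxcl12, the ligand of Cxcr4 that mesenchymal cells make, had log2 intensities of 16.28 and 16.57 in labelled knockout against 16.84 and 16.60 in labelled control. Both knockout values were the lower, but on array 2 by far less than on array 1. Its ratio was -0.56 on array 1 and -0.03 on array 2 (mean -0.29 ± 0.38, SD, n = 2), and a second probe read -0.28 and -0.18. Cxcl14, a constitutive ligand of epithelia and stroma, had 10.93 and 10.76 in labelled knockout against 11.44 and 10.74 in labelled control. Its ratio was -0.51 on array 1 and 0.02 on array 2. Neither passed (limma adjusted p = 1 for both), and the control sample of array 1 was the highest of the 4 for each.

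The 11 markers of mesenchyme were all tested and none passed, with 7 below 0 on both arrays and 2, Dcn and Lum, above 0 on both. Over all 20104 genes 4948 were below 0 on both and 4368 above. The median of the mesenchyme markers was -0.36 on array 1 and -0.09 on array 2, against -0.00928 and -0.00339 over all genes. Foxf1, a target of hedgehog signalling, had a mean of -0.70, and over the 2 arrays Col1a1 read -0.61 and -0.35, and Ptch1, the hedgehog receptor, -0.70 and -0.12. The other way, Dcn, which encodes decorin, read 0.39 and 0.19, and Pdgfra was near 0 (-0.03 and -0.02). Their summed intensity was 687822 and 719703 in labelled knockout, against 828164 and 742174 in labelled control. For Cxcl13 the larger difference was on array 2, and for the mesenchyme median it was on array 1. The part of mesenchyme in the values of Cxcl12, Cxcl14 and Cxcl13 was not tested, and the arrays also differ in sex and dye orientation.

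Cxcl11, an interferon-induced ligand of Cxcr3 that the RefSeq table lists as a transcribed pseudogene in this assembly, read -0.68 on array 1 and 0.01 on array 2 with its brighter probe (16.77 and 17.21 in labelled knockout, 17.46 and 17.20 in labelled control). That probe, on mm9 chromosome 5 at 92788567 to 92788626, is not specific in sequence. It holds the following 30 bases, which also stand in probes of 3 other genes and belong to the B1 family of dispersed repeats, with the 20 bases shared by probes of 4 other genes in capitals.
Cxcl11 probe, from its base 14: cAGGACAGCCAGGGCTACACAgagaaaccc

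Runs of at least 20 bases linked this probe to 5 other probes on the same strand and 2 on the opposite strand. The other Cxcl11 probe, whose longest shared run was 19 bases, read -0.20 on array 1 and -0.13 on array 2. That run also stands in a probe of 1 other gene, and this second probe lies close beside the first, at 92788640 to 92788699. The value of Cxcl11 is therefore uncertain by either probe. Repeat-bearing transcripts cannot be told apart from Cxcl11 by its brighter probe, and whether they also bind the second was not tested.

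Ligands of Cxcr2 and Cxcr3 follow. Cxcl5, a neutrophil attractant made by epithelia, was well above background in 4 of 4 spots of both knockout channels and in 0 of 4 of both control channels. Its log2 intensity was 7.07 and 7.03 in labelled knockout, against 6.93 and 6.60 in labelled control. Its mean ratio was 0.28, or 1.22-fold higher in labelled knockout (mean log2 intensities 7.04 and 6.76, limma adjusted p = 1). The control was never well above background, so this fold is uncertain. Raising control values to each array's lowest clear signal left the fold unchanged, so 1.22 is an estimate and no lower bound. Cxcl5 was kept through the knockout channels alone, and its mean ratio ran from 0.24 to 0.95 over 11 other settings, which is given as a description.

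Cxcl1, another attractant of neutrophils, read 0.08 on array 1 and 0.27 on array 2, and the interferon-induced Cxcl10 read 0.04 and 0.33. Cxcl9, induced like Cxcl10 by interferon-gamma, read -0.15 and -0.14 and cleared background in labelled knockout on 1 array of 2. Ccl24, an eosinophil attractant, read 0.13 and 0.30. None of these passed, and each of these differences was smaller than 1.5-fold on each array.

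The remaining ligands stood near 0. Ccl12 read 0.15 on array 1 and 0.12 on array 2, and its relatives among the Ccr2 ligands, Ccl2 (-0.08 and 0.09) and Ccl7 (0.08 and -0.11), had opposite signs on the 2 arrays. Ccl11, an eosinophil attractant, read 0.00368 and -0.04, and Ccl1, a ligand of Ccr8, -0.01 and -0.09. Ccl19, the Ccr7 ligand of lymphoid stroma, read -0.07 and -0.06, and its 2 further probes -0.04 and -0.05, and -0.17 and -0.00264.

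Ccl25, a thymus and gut ligand of Ccr9, read 0.04 and 0.15, and its 2 other kept probes 0.06 and -0.05 and 0.22 and -0.10. Ccl27a and Ccl28, epithelial ligands of Ccr10, read -0.20 and 0.12, and -0.32 and 0.24, both with the sign turned between arrays. A Ccl27a probe overlapping the first by 48 bases read -0.16 and 0.09. Another Ccl27a probe at a distance read 0.09 and 0.00848, without a turn of sign. The transmembrane ligands, shed from the cell surface by metalloproteases, gave -0.21 and -0.08 for Cx3cl1 and -0.10 and 0.05 for Cxcl16.

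Ccr6 is the receptor for Ccl20 on lymphocytes and dendritic cells. Its log2 intensity was 7.11 and 6.72 in labelled knockout, against 7.67 and 7.10 in labelled control. On each array the knockout was the lower, although the knockout on array 1 and the control on array 2 were nearly equal. The ratio was -0.55 on array 1 and -0.37 on array 2 (mean -0.46 ± 0.13, SD, n = 2, limma adjusted p = 0.339, unadjusted p = 0.00345). Labelled knockout was well above background on array 1 (3 of 4 spots) and not on array 2 (0 of 4), whereas labelled control was so in 4 of 4 on both, so its fold is uncertain. It was kept through the control channels alone, and its mean ran from -1.31 to -0.42 over 11 other settings, which is given as a description. Its ligand Ccl20 had no spot above background. The probe lies on mm9 chromosome 17 at 8449933 to 8449992.

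Ccr7, the receptor for Ccl19 on dendritic cells and lymphocytes, read -0.16 on array 1 and -0.23 on array 2. Cxcr4, the receptor for Cxcl12, read -0.15 and 0.19, and so did not follow its ligand on array 2. Ccr2, the monocyte receptor, read 0.13 and -0.23, and Cx3cr1, which marks tissue macrophages, -0.24 and 0.17. Of the other probes of Cx3cr1, one overlapping by 55 bases read -0.26 and 0.19, and one at a distance 0.00945 and -0.08. Cxcr6, the Cxcl16 receptor of T cells, read 0.08 and -0.29.

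Ccr4, Ccr8 and Ccr10, receptors of T cell subsets and skin homing, gave 0.03 and -0.12, -0.03 and 0.01, and 0.01 and -0.04. Cxcr3, the receptor for Cxcl9 and Cxcl10, gave -0.03 and -0.06. Cxcr3, like Ccr6 and Ccr8, was kept through the control channels alone. Of the 10 receptors none passed by limma, and 1 (Ccr6) had an unadjusted p under 0.05.

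Lymphocyte markers, which bear on the receptors that lymphocytes carry, were measured in part. Of 13 markers 5 were tested and none passed. Cd3e, Cd4, Cd79a and Nkg7 had 4 of 4 spots well above background in every channel, whereas 7 markers had no such spot, among them Cd3d, Cd3g and Cd8a. The summed intensity of the tested markers was 3344 and 3635 in labelled knockout against 3880 and 3380 in labelled control.

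**Figure D4:**
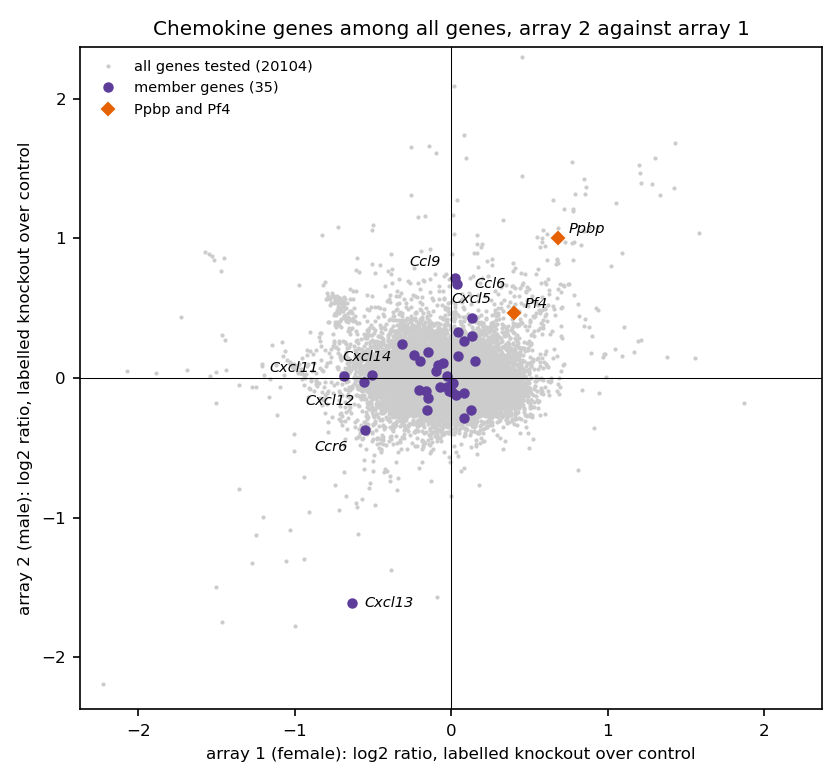
Log2 ratio of labelled knockout over control on array 2 (y axis) against array 1 (x axis) for 20104 genes in grey, the 35 member genes in purple, and Ppbp and Pf4 in orange. Cxcl13 alone among members is beyond 1.5-fold on both arrays, Ccl6 and Ccl9 lie on the vertical axis, and Cxcl11, Cxcl12 and Cxcl14 on the horizontal one.

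Of all 35 tested members, 18 had the same sign on both arrays, against 46.3% of all genes. At least 1.5-fold in one direction on both arrays was reached by 1 member, Cxcl13, against 0.368% of all genes. On 1 array or more the size was reached by 4 members (Cxcl13, Ccl6, Ccl9 and Cxcl11), against 3.31%. The median of the members was -0.0379 for the mean of both arrays, -0.0293 on array 1 and 0.0115 on array 2, beside -0.00438, -0.00928 and -0.00339 over all genes. The tested members had to pass the filter, and the other 19 have no fold.

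By position, 14 of the 54 members lie on mm9 chromosome 11, of which 13 were kept, 12 on chromosome 9 with 5 kept, and 11 on chromosome 5 with 7 kept. Over all genes, on any chromosome, 20104 of 29875 were kept. Chromosome 11 holds the CC ligand cluster and chromosome 9 most CC receptors. 

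Chemokine genes outside the naming rule gave a second call. Among 12 atypical receptors and chemokine-like ligands 11 were tested, and 1 rose and none fell. This was Ppbp, which encodes platelet basic protein, a CXC chemokine stored in platelets. Its log2 intensity was 8.69 and 8.63 in labelled knockout against 8.01 and 7.63 in labelled control, with both knockout values above both controls. It was 1.79-fold higher in labelled knockout (ratios 0.68 and 1.01, mean 0.84 ± 0.23, SD, n = 2, limma adjusted p = 0.0275). The call was lost without background correction (0.0577), with median centring, without a filter (0.748) and with unpaired channels without dye (0.0584).

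Pf4, the platelet factor encoded next to it, read 0.40 on array 1 and 0.47 on array 2 (adjusted p = 0.379). The scavenger receptor Ackr4 read -0.21 and 0.68, and Cd74, a receptor for Mif, -0.34 and 0.15. Cxcl5, Ppbp, Pf4 and Cxcl1 lie together on mm9 chromosome 5 between 91190490 and 91321904, and each was above 0 on both arrays, a group put together after these values were seen. Cxcl3 and Cxcl15 lie in the same interval and had no spot well above background. Of 9 platelet and red cell markers 7 were tested and none passed; Gp9, a platelet surface glycoprotein, read 0.92 and 0.50 (adjusted p = 0.0866), and the embryonic globin genes Hbb-bh1 and Hbb-y had means of -0.29 and -0.25. The summed list came to 375193 and 437342 in labelled knockout, against 463031 and 381391 in labelled control. Globin genes dominate this sum, so it says little about platelets. In labelled knockout Hba-a1 had log2 intensities of 17.76 and 17.90, against 8.75 and 8.21 for Gp9. The part of platelets in the values of Ppbp was not tested.

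Genes that induce chemokines, signal below their receptors or present them showed no call. Of 23 inducers, mainly cytokines, their receptors and NF-kappa-B proteins, 17 were tested and none passed, with a median of -0.08. In lymphoid tissue Cxcl13 is induced through lymphotoxin and the lymphotoxin beta receptor. Ltb, which encodes lymphotoxin beta, read -0.01 on array 1 and -0.60 on array 2, the receptor gene Ltbr -0.29 and -0.11, and the non-canonical NF-kappa-B genes Nfkb2 and Relb -0.22 and -0.10, and -0.05 and -0.18. Rela read -0.10 and -0.38 and the TNF receptor gene Tnfrsf1a -0.38 and -0.04. Of the 17 tested inducers 9 were below 0 on both arrays and 5 above, among the latter Nfkbia (0.21 and 0.03) and Ifngr1 (0.12 and 0.12). Over all 20104 genes 4948 were below 0 on both arrays and 4368 above. The difference between these shares was not tested. Lta, which encodes lymphotoxin alpha and was dim, read 0.05 and -0.21. The part of lymphotoxin signalling in the values of Cxcl13 was not tested. The genes for the cytokines Il1a, Il1b, Il6 and Ifng had no spot above background.

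Of 31 signalling genes 26 were tested and none passed (median -0.05). Among the largest means were 0.28 for Rgs2, which ends G-protein signals, and -0.26 for Prex1, a Rac activator. All 13 genes of presentation, shedding and trimming were tested and none passed (median 0.03). Sdc3 and Sdc4, syndecans that hold chemokines at the cell surface, had means of -0.19 and 0.15, and Adam10, which sheds Cx3cl1 and Cxcl16, one of -0.16. In these 3 lists 1 gene, Rgs2, had an unadjusted p under 0.05.

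**Figure D5:**
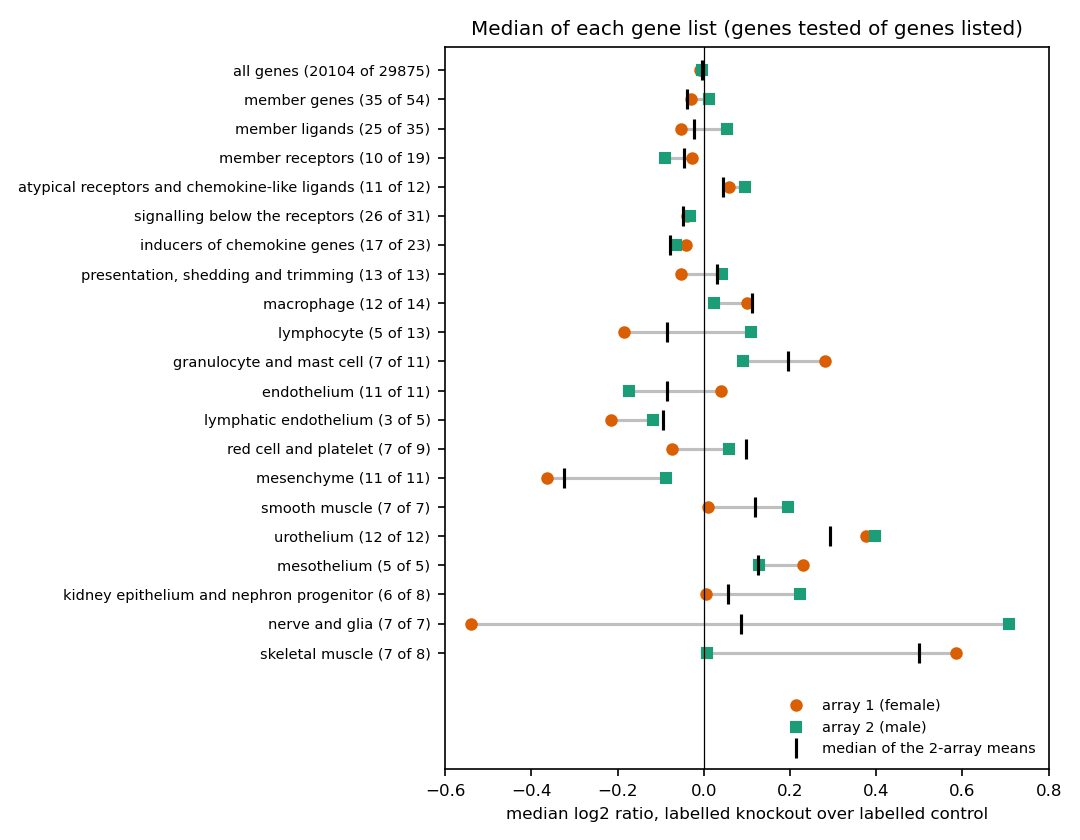
Median log2 ratio of labelled knockout over control (x axis) for all genes, the members and each gene list, with circles for array 1, squares for array 2 and bars for the median of the mean of both arrays. The members lie near 0, mesenchyme is below 0 and urothelium above 0 on both arrays.

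The dissected tissue held urothelium, smooth muscle and mesenchyme by their markers. Of 12 urothelial markers 3 rose, the uroplakin genes Upk3a, Upk1a and Upk1b (means 1.55, 1.36 and 1.31), with further means of 0.95 for Upk2, 0.53 for Krt19 and 0.31 for Cdh1. Of 5 mesothelial markers 1 rose, Upk3b (0.77), beside Msln (0.41) and Wt1 (-0.18, from -0.50 on array 1 and 0.13 on array 2). None passed among the other lists. Granulocyte and mast cell markers S100a9 and S100a8 had means of 0.85 and 0.73, with 1.87 and 1.19 on array 1 and -0.18 and 0.27 on array 2, and 4 of 11 had no spot above background.

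Endothelial Flt1 and Cdh5 had means of -0.37 and -0.36, lymphatic Flt4 one of -0.17, and Prox1 had no spot above background. Nerve and glia markers had a median of -0.54 on array 1 and 0.71 on array 2. Th had a mean of 0.35 (-0.02 and 0.71) and Prph one of 0.30 (-0.50 and 1.10), each with opposite signs on the arrays. Skeletal muscle Myh8 and Tnnc2 had means of 0.85 and 0.56, with 1.56 and 0.97 on array 1 and 0.15 for both on array 2. Smooth muscle Myocd (mean -0.44) and the nephron progenitor marker Cited1 (0.41) complete the lists. The part of these cells in the members' values was not tested.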

How the data were processed

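Total RNA of E14.5 ureters (150 ng per sample) was measured on 2 two-colour Agilent arrays. Agilent Feature Extraction 10.7.3.1, named in the submitters' processing notes, gave each channel's spot intensity, per the file headers, as mean signal and median local background. Processed intensity and a red over green log10 ratio stand beside it in the deposited files. The score in the authors' table, deposited as signed folds of unstated scaling, correlates at -0.822 and -0.739 with knockout over control on arrays 1 and 2; it was turned and used as an alternative only.

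Here background was corrected by normexp (offset 50), each array was loess-normalised (control spots weighted 0), and outlier spots (3.52% and 3.66%) were left out. No spot was saturated. Spots were averaged, and a gene was its brightest kept probe. A two-sided limma 3.58.1 test (R 4.3.3) set the 2 log2 ratios of a gene against 0, with p-values adjusted by Benjamini-Hochberg across 20104 genes, 1 residual degree of freedom and a prior of 9.21. Bounds compare Aquantile-normalised channel means with each array's lowest signal well above background, and remain open to dye bias. Steps were tested on simulated data. The number of arrays, 2, limits precision. Probe coordinates are mm9; an annotation of that build was not used here. Member names matched a RefSeq table (GRCm38.p6) by accession for 64 probes and by symbol for 7. Members and lists were chosen with earlier results of these data known. Every tested member is named, and of each other list those that passed and up to 3 more with the largest means, except some genes that are not reported here; other genes named beside them were chosen after their values were seen. Alternatives covered background, signal, normalisation, filter, probes, prior, pairing of channels, the deposited table and each array alone. Plots used matplotlib 3.10.9.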

Additional observations from a re-analysis of the deposited data

How the results depend on the processing

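As reported, 0 member genes were higher and 1 was lower in labelled knockout. The lower count was 0 without background correction, with median centring, without a filter on dim probes and with 4 unpaired channels without dye. It was 2 (Ccr6 and Cxcl13) with an offset of 0, processed signals, a prior that follows intensity and the authors' deposited values. The higher count was 1 (Cxcl5) with the scanner software's processed signals and with the deposited folds. Over all genes the count of calls, 66 as reported, was 0 with median centring and with no filter, 26 with unpaired channels without dye, 37 without background correction, 131 with an offset of 0, 156 with the other prior, 191 with the deposited values and 246 with processed signals. The cause was not tested. The members' median was -0.0379 as reported, -0.0293 with array 1 alone and 0.0115 with array 2 alone, which have no test. Cxcl13 read -0.64 on array 1 alone and -1.61 on array 2 alone. Ccl6 and Ccl9 passed in none of 12 settings, with means of 0.33 to 0.46 and 0.29 to 0.47. No member's call changed direction. The ratios as reported pair knockout and control within an array, and the unpaired channels are the alternative without that block. Dim probes limit Ccr6, Cxcl5, Cxcl9, Cxcr3, Ccr8 and Ccl1, whose signal was not well above background in some channels.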
